A study of Drosophila melanogaster with 12 samples.

Results

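The 8 Hox genes of Drosophila melanogaster, namely lab, pb, Dfd, Scr, Antp, Ubx, abd-A and Abd-B, were followed by their gene symbols through RNA-seq of the larval ventral nerve cord. They are 8 of the 14251 genes with a row in at least 1 of the 2 deposited count tables. The tissue was compared between mutants of Kdm5, a histone demethylase of the trithorax group that removes methyl marks from lysine 4 of histone H3, and a rescued control. The L854F group held homozygotes for the kdm5 L854F allele and had 4 samples. The JmjC group had 4 samples of larvae homozygous for the kdm5 JmjC* allele, enzymatically inactive according to the title of the series. The WT group, with 4 samples, carried the kdm5 140 mutation together with a genomic kdm5 transgene (gKDM5) that rescues it, so these controls are themselves not free of kdm5 alleles. All larvae were at the wandering stage of the last larval instar and were raised at 25 °C on standard food without treatment, and poly(A) RNA libraries were read as pairs of 150 bases. Sex, number of larvae per sample and batch are not given in the sources used here. Nothing in the labels says that the samples of a group came from separate animals or cultures, so the p-values measure the spread between these samples, which may be technical.

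Hox genes encode homeodomain transcription factors that give the segments of the body their identity along the head-to-tail axis. In the nerve cord they are expressed in overlapping domains whose order follows the order of the genes on the chromosome, and there they set which neurons a segment makes and which progenitors stop dividing or die. Polycomb group proteins keep them silent outside their domains, and trithorax group proteins, the group to which Kdm5 is assigned, keep them active within them. In bulk RNA from a whole nerve cord, fewer cells that express a gene and less RNA per cell cannot be told apart.

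The 5 genes of the Antennapedia complex lie on chromosome arm 3R of build BDGP6.54 within 337802 bases. In this complex lab spans 6661427 to 6678590, pb 6707800 to 6742063, Dfd 6791836 to 6802428, Scr 6823120 to 6849981 and Antp 6896253 to 6999228. The 3 genes of the bithorax complex lie farther along the same arm within 315614 bases, with Ubx at 16656623 to 16734426, abd-A at 16807214 to 16830049 and Abd-B at 16927212 to 16972236. Dfd is the member annotated on the plus strand, and the other 7 are on the minus strand. Antp shares 3978 exon bases with CG46458 on its own strand, a gene with no row in the count tables, so reads of the pair could not be separated and the Antp value is uncertain to that extent. Ubx shares 51 exon bases with an antisense gene, asRNA:PS4, and whether counting used strand is not given in the sources used here.

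**Figure D1:**
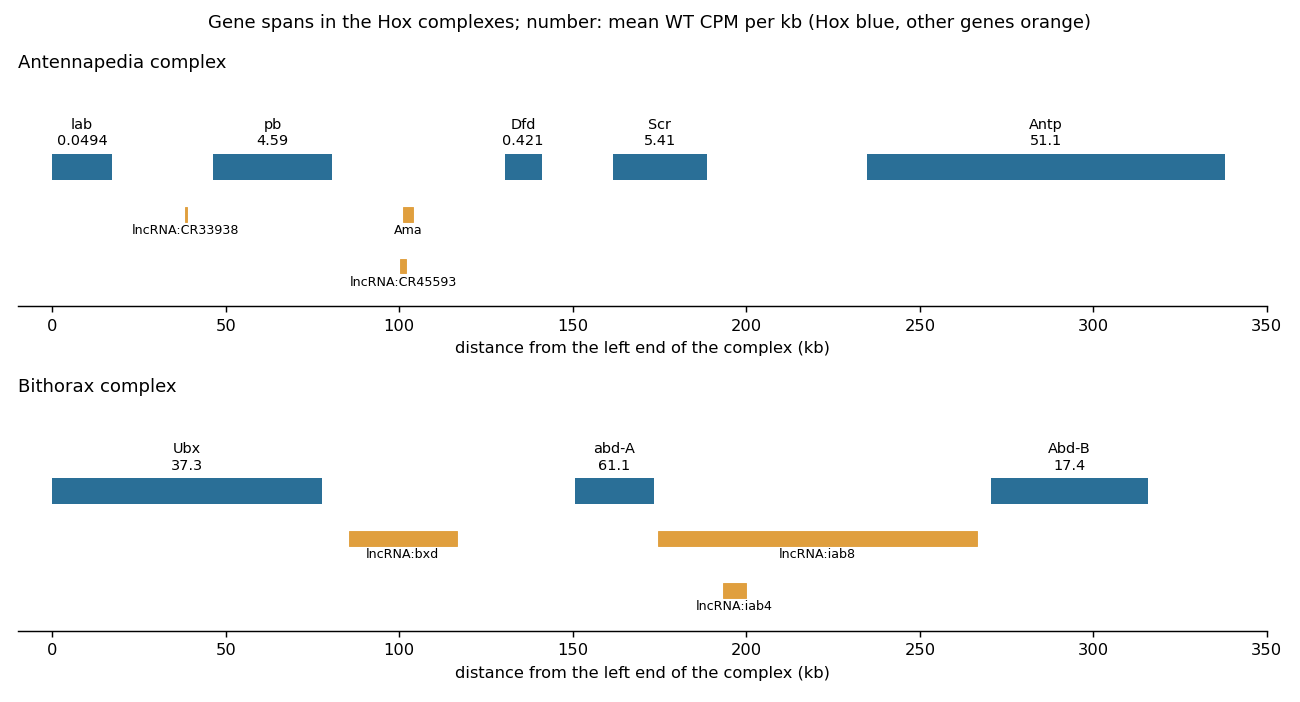
Spans of the 8 Hox genes (blue) and of other named genes (orange) in the 2 complexes, against distance in kb from the left end of each complex. The number over each Hox gene is its mean WT level in CPM per kb, which is 61.1 for abd-A, 51.1 for Antp and 0.0494 for lab.

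Each sample held between 15103631 and 16850705 counts, and the 12 totals lay close together. Levels are given as CPM, counts scaled to a library of 1000000 with 1 common TMM scaling over all 12 samples. All 7 neuron markers were measured in every group, with summed levels of 3900 to 4510 CPM in L854F, 3940 to 4840 CPM in JmjC and 3890 to 4480 CPM in WT. The 8 muscle markers summed to 20.2 to 42.2 CPM in L854F, 15.2 to 26.2 CPM in JmjC and 28.4 to 71.0 CPM in WT, and the 10 brain patterning genes to 153 to 158, 147 to 167 and 140 to 147 CPM in the same groups. The 6 glia markers summed to 932 to 1190 CPM in L854F, 1460 to 1790 CPM in JmjC and 1090 to 1370 CPM in WT. The high JmjC sum came from 1 gene, alrm, which averaged 259 ± 47.4 CPM in L854F, 716 ± 41.9 CPM in JmjC and 229 ± 26.9 CPM in WT (SD, n = 4 each), while moody, Gs2, wrapper and nrv2 had lower means in JmjC than in WT. No member of these lists was at 0 in a whole group. Kdm5 itself averaged 774 ± 30.5 CPM in L854F, 773 ± 37.9 CPM in JmjC and 716 ± 33.9 CPM in WT (SD, n = 4 each); RNA level does not show which allele a sample carried.

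The Hox genes differed widely in level in the nerve cord. To compare genes, CPM was divided by the deposited gene length in kb. The abdominal gene abd-A had the highest mean level, at 66.4 CPM per kb in L854F, 56.5 in JmjC and 61.1 in WT. The thoracic gene Antp followed with 51.8 CPM per kb in L854F, 49.9 in JmjC and 51.1 in WT. Ubx, which acts at the junction of thorax and abdomen, had 38.9 CPM per kb in L854F, 35.5 in JmjC and 37.3 in WT. Abd-B, the most posterior of the genes, had 18.5 CPM per kb in L854F, 15.5 in JmjC and 17.4 in WT. These 4 genes of the trunk stood above all 4 genes of the head and mouthparts in every group.

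Next in level were Scr and pb, which act in the labial and other mouthpart segments. Scr had 4.92 CPM per kb in L854F, 6.57 in JmjC and 5.41 in WT, and pb had 4.95 CPM per kb in L854F, 4.24 in JmjC and 4.59 in WT. Dfd, the gene of the maxillary and mandibular segments, came below them, and lab, the most anterior gene, was lowest. Dfd had 0.572 CPM per kb in L854F, 0.756 in JmjC and 0.421 in WT, and lab had 0.0570 CPM per kb in L854F, 0.0775 in JmjC and 0.0494 in WT. The sample ranges of abd-A and Antp overlapped in all 3 groups, so their order was not separated by the spread. Scr and pb overlapped in L854F, where pb stood 1.01 times as high as Scr, and their ranges did not overlap in JmjC and WT. All other neighbours in the order were separate in every group.

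**Figure D2:**
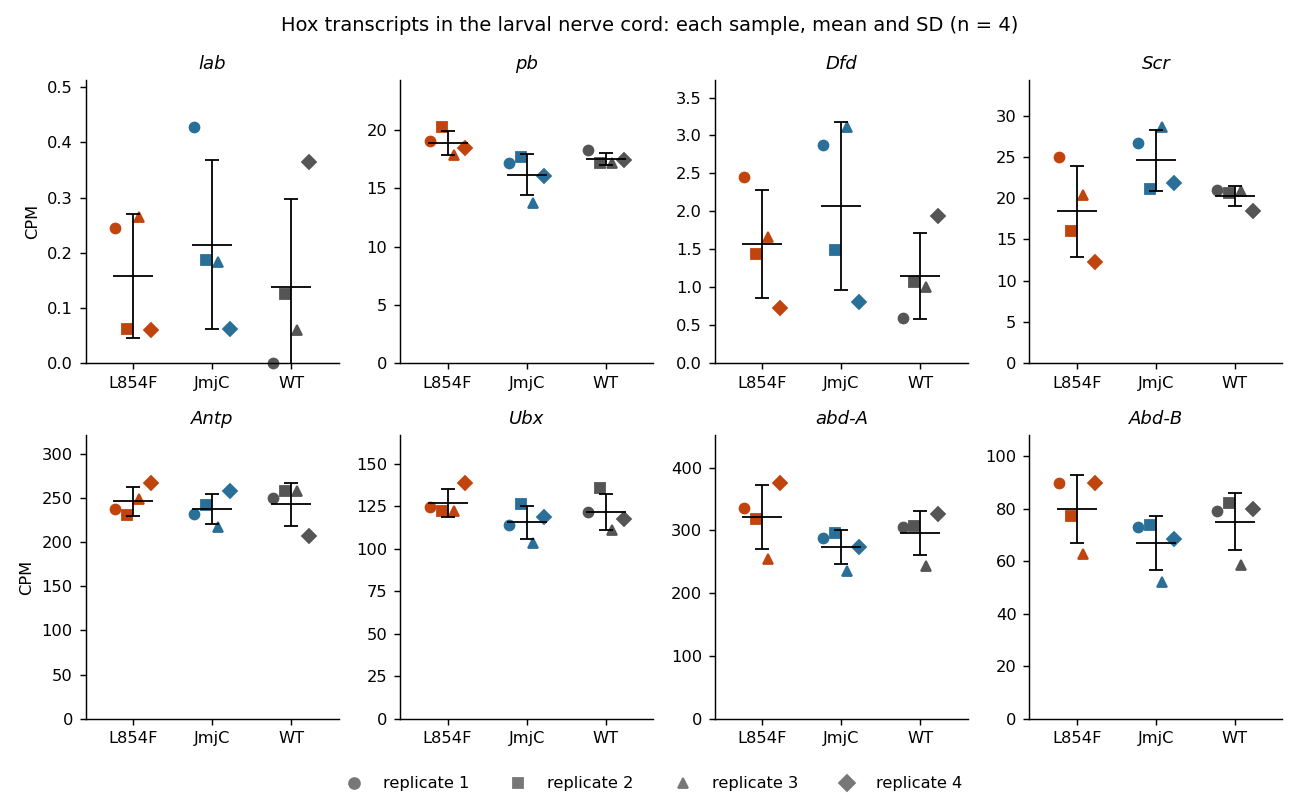
Level of each Hox gene in CPM in every sample of L854F, JmjC and WT, with the mean and SD over 4 samples as bars, clipped at 0 for lab in WT. Scr is the gene whose 4 JmjC samples, at 21.1 to 28.6 CPM, all lie above the 4 WT samples at 18.4 to 21.02 CPM. Over all genes the groups did not overlap for 22.7% in JmjC against WT.

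Among the genes of the Antennapedia complex, lab was at the limit of detection. It had 4, 1, 4 and 1 counts in the L854F samples, 7, 3, 3 and 1 counts in JmjC, and 0, 2, 1 and 6 counts in WT. The groups overlap, and a count of 0 in 1 library of this depth allows up to 3 counts. lab did not pass the filter on low counts and was not tested.

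For pb, a gene that specifies the adult labial and maxillary parts together with Scr, the L854F samples had 19.0, 20.3, 17.8 and 18.5 CPM. JmjC samples had 17.2, 17.7, 13.7 and 16.1 CPM, and WT samples had 18.3, 17.2, 17.2 and 17.4 CPM. Every L854F sample was above every JmjC sample, while WT lay between and overlapped both. The groups of 20.9% of all genes did not overlap in L854F against JmjC.

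For Dfd, whose protein specifies maxillary and mandibular identity, the L854F samples had 2.45, 1.44, 1.66 and 0.726 CPM. JmjC samples had 2.87, 1.49, 3.11 and 0.806 CPM, and WT samples had 0.595, 1.06, 1.01 and 1.94 CPM. The groups overlap widely, and the values rest on 10 to 51 counts in each sample. The highest sample was 5.23 times the lowest over the 12, the widest range among the 7 tested members.

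Scr specifies the labial segment and the first thoracic one. Its L854F samples had 25.0, 16.0, 20.4 and 12.2 CPM, its JmjC samples 26.7, 21.1, 28.6 and 21.8 CPM, and its WT samples 21.02, 20.6, 20.8 and 18.4 CPM. All 4 JmjC samples were above all 4 WT samples, although the lowest JmjC and the highest WT values were close. The groups of 22.7% of all genes did not overlap in this comparison. The L854F samples spread over both sides of WT, with a coefficient of variation of 30.0% against 5.90% in WT, where counting alone would give 5.47%.

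Antp, which directs thoracic identity, had 238, 231, 249 and 268 CPM in L854F, 232, 242, 218 and 258 CPM in JmjC, and 250, 258, 258 and 207 CPM in WT. The groups overlap, and WT replicate 4 was the lowest of all 12 samples. Over the 12 samples the highest value was 1.30 times the lowest, the narrowest range of the 7 tested members.

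The bithorax complex genes had overlapping groups throughout. Ubx, which sets the identity of the posterior thorax and the first part of the abdomen, had 124, 122, 122 and 139 CPM in L854F, 114, 126, 103 and 119 CPM in JmjC, and 121, 136, 111 and 118 CPM in WT. L854F replicate 4 was the highest of all 12 samples. abd-A, which specifies most abdominal segments and triggers the death of abdominal neuroblasts, had 336, 319, 254 and 376 CPM in L854F, 288, 296, 236 and 274 CPM in JmjC, and 306, 308, 244 and 326 CPM in WT. Abd-B, which specifies the posterior abdomen and the terminal neuromeres, had 90.0, 77.3, 62.9 and 89.7 CPM in L854F, 73.1, 73.9, 51.9 and 68.3 CPM in JmjC, and 79.1, 82.0, 58.7 and 80.0 CPM in WT. For abd-A as for Abd-B, replicate 3 was the lowest sample of its group in all 3 groups.

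In L854F against WT none of the 7 tested Hox genes was called at an adjusted p under 0.05, and none had an unadjusted p under 0.05. Adjusted p-values here come from edgeR's quasi-likelihood test with Benjamini-Hochberg adjustment over all genes tested. The share of all 9105 genes called in this comparison was 5.54%, and 19% had an unadjusted p under 0.05. DESeq2 also called 0 Hox genes. The log2 fold change of pb was 0.11 with a 95% interval of -0.05 to 0.26 (adjusted p = 0.466). Dfd had 0.44 (interval -0.46 to 1.35, adjusted p = 0.640) and Scr -0.14 (interval -0.52 to 0.24, adjusted p = 0.745). For Antp the log2 fold change was 0.02 with a 95% interval of -0.15 to 0.19, and for Ubx 0.06 with an interval of -0.09 to 0.21. For abd-A it was 0.12 with an interval of -0.13 to 0.37, and for Abd-B 0.09 with an interval of -0.18 to 0.37. The median log2 fold change of the 7 was 0.09, against 0.00 over all genes tested.

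In JmjC against WT, a comparison that shares its 4 WT samples with the previous one, none of the 7 was called either, where 17.3% of all 9244 tested genes were. DESeq2 called 0 as well. By edgeR, 1 of the 7 had an unadjusted p under 0.05, where 31% of all genes had one, and DESeq2 gave the same number of 1. That gene was Scr, which averaged 24.6 ± 3.67 CPM in JmjC and 20.2 ± 1.19 CPM in WT (SD, n = 4 each). The difference was 0.28 on the log2 scale, with an SE of 0.10, a 95% interval of 0.05 to 0.51 and an adjusted p of 0.0867. It is also the member whose groups did not overlap, as was the case for 22.7% of all genes. In the same comparison 1 of the 6 glia markers, alrm, was called higher (log2 fold change 1.65, adjusted p = 4.82e-07) and 1, moody, lower (-0.31, adjusted p = 0.0223), and the median over the 6 was -0.19. The 7 imaginal disc markers summed to 363 to 391 CPM in JmjC and 427 to 441 CPM in WT. Most of the gap came from rn, at a mean of 137 CPM in JmjC and 177 CPM in WT, and bab2, at 173 and 192 CPM. Of the others, vg and ap had higher means in JmjC than in WT, and nub, Dll and al lower ones. Other marker lists held calls too, where 9.66% of all genes were called higher and 7.67% lower. Of 7 tested muscle markers 3 were lower, and of 7 neuron markers 2 were higher. Of 5 neuroblast markers 1 was higher and 1 lower. Of 5 hemocyte markers 1 was lower, as was 1 of 4 of trachea and epidermis. The 6 fat body and 5 salivary gland markers had 0 called. None of these markers was at 0 in a group, and their part in the Scr value was not tested. Without JmjC replicate 2 the Scr difference passed the threshold, with a log2 fold change of 0.347 and an adjusted p of 0.0475. Over the 16 alternatives its log2 fold change ranged from 0.199 to 0.347, and its adjusted p reached 0.282. By edgeR, 0 of the 7 had an unadjusted p under 0.05 without JmjC replicate 1, without JmjC replicate 3 or with all 12 samples in 1 fit. The number was 3 without WT replicate 3. It was 2 without JmjC replicate 4, without number 3 in both groups and with the replicate block.

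Dfd averaged 2.07 ± 1.11 CPM in JmjC and 1.15 ± 0.566 CPM in WT (SD, n = 4 each), and its log2 fold change of 0.85 had a wide 95% interval of -0.15 to 1.85 (adjusted p = 0.234). The remaining 5 members had log2 fold changes below 0 in JmjC, none called. They were -0.12 for pb, -0.03 for Antp, -0.07 for Ubx, -0.11 for abd-A and -0.17 for Abd-B, with adjusted p-values of 0.408 to 0.802. The 95% interval was -0.32 to 0.10 for abd-A and -0.45 to 0.11 for Abd-B. The median over the 7 was -0.07, against 0.00 over all genes tested.

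In L854F against JmjC, again 0 of the 7 was called by edgeR and 0 by DESeq2, where 16% of all 9207 genes were called by edgeR. By edgeR 2 of the 7 had an unadjusted p under 0.05, where 30.4% of all genes had one, and by DESeq2 4 did. These 2 were pb and Scr. pb averaged 18.9 ± 1.04 CPM in L854F and 16.2 ± 1.77 CPM in JmjC (SD, n = 4 each), with a log2 fold change of 0.23 (95% interval 0.03 to 0.43, adjusted p = 0.119). Its groups did not overlap, as was the case for 20.9% of all genes. Scr averaged 18.4 ± 5.52 CPM in L854F and 24.6 ± 3.67 CPM in JmjC, a log2 difference of -0.41 with an SE of 0.19 and an adjusted p of 0.164.

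All 3 bithorax genes had estimates above 0 in L854F against JmjC. abd-A averaged 321 ± 50.8 CPM in L854F and 274 ± 26.8 CPM in JmjC (SD, n = 4 each), with a log2 fold change of 0.24 (adjusted p = 0.169). Abd-B averaged 79.9 ± 12.8 CPM in L854F and 66.8 ± 10.2 CPM in JmjC, with a log2 fold change of 0.27 (adjusted p = 0.195), and Ubx had 0.14 (adjusted p = 0.201). Without the samples numbered 3 in both groups, an alternative chosen after seeing the data, abd-A was called with a log2 fold change of 0.272 (adjusted p = 0.0331) and Abd-B with 0.263 (adjusted p = 0.0388). Without L854F replicate 3 alone abd-A was called (log2 fold change 0.337, adjusted p = 0.0294), and without L854F replicate 1 Scr was (log2 fold change -0.599, adjusted p = 0.0467). The replicate block called Scr, abd-A and Abd-B, with adjusted p-values of 0.0225, 0.0368 and 0.0171 by edgeR. Whether the replicate numbers pair the samples is not settled. Some of the other alternatives weakened the differences. Over the 16 the adjusted p reached 0.366 for abd-A, 0.395 for Abd-B and 0.314 for Scr. By edgeR, 0 of the 7 had an unadjusted p under 0.05 without L854F replicate 2 or without JmjC replicate 3. The number was 5 without JmjC replicate 2 and with the replicate block, and 3 without L854F replicate 3.

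**Figure D3:**
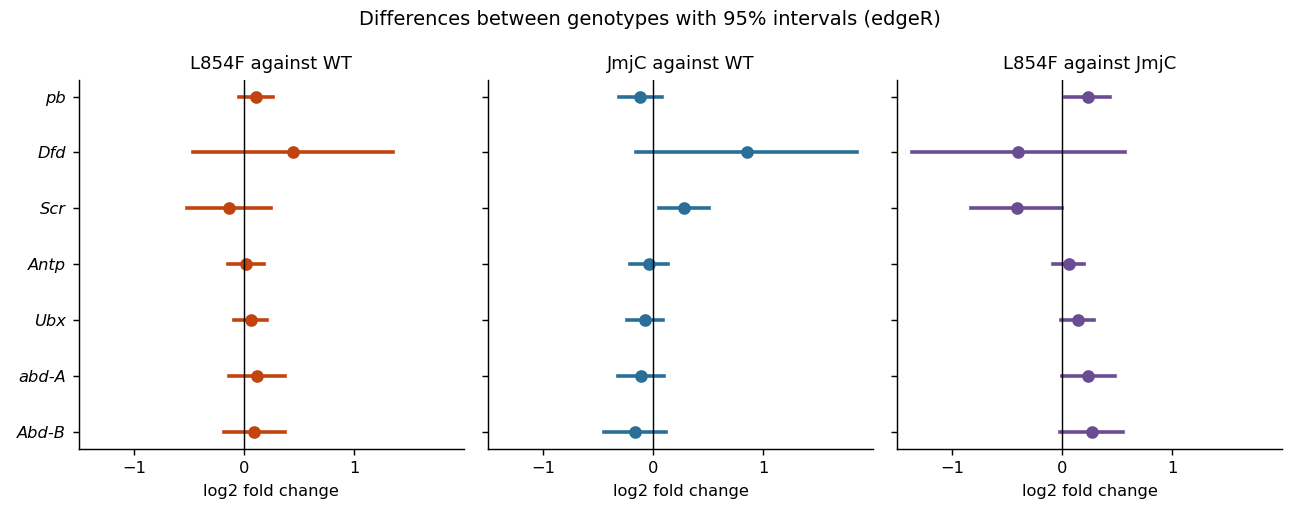
Log2 fold change (points) with 95% interval (lines) of the 7 tested Hox genes in L854F against WT, JmjC against WT and L854F against JmjC. Intervals that leave out 0 are those of Scr in JmjC against WT and of pb and Scr in L854F against JmjC, and none of these passed the adjusted threshold.

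The authors' deposited tables gave log2 fold changes of the same sign for all 7 tested genes in both comparisons with WT. In L854F against WT, the authors' deposited table had log2 fold changes of 0.11 for pb, 0.39 for Dfd and -0.13 for Scr, with adjusted p-values of 0.847, 0.915 and 0.915. In JmjC against WT, the authors' deposited table had 0.27 for Scr with an adjusted p of 0.134 and 0.76 for Dfd with an adjusted p of 0.325. For lab, the authors' deposited tables held 0.10 in L854F and 0.41 in JmjC, with adjusted p-values of 0.98 and 0.796.

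The spread within groups differed between the members. The pooled within-group SD of log2 CPM was 0.107 for pb, 0.112 for Ubx and 0.120 for Antp, close to the median of 0.118 over 9012 tested genes. It was 0.193 for abd-A, 0.236 for Abd-B, 0.289 for Scr and 0.729 for Dfd. For abd-A 75.9% of tested genes had a smaller within-group SD, and for Abd-B 82.0% did. The counts behind abd-A would by themselves give a coefficient of variation of 1.39% to 1.501% per sample, against 15.8% measured in L854F, 9.79% in JmjC and 12.04% in WT, so counting error was a small part of its spread.

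abd-A and Abd-B moved together from sample to sample. On the log2 CPM scale, replicate 3 deviated from its group mean by -0.32 in L854F, -0.21 in JmjC and -0.27 in WT for abd-A, and by -0.33 in L854F, -0.35 in JmjC and -0.34 in WT for Abd-B. For pb replicate 3 was the lowest sample too, but by -0.08 in L854F, -0.23 in JmjC and -0.03 in WT, with WT replicate 2 at the same deviation. The ratio of abd-A to Abd-B in CPM was 4.03 ± 0.205 in L854F, 4.13 ± 0.280 in JmjC and 3.96 ± 0.186 in WT (SD, n = 4 each). The ratio of abd-A to Antp was 1.31 ± 0.189 in L854F, 1.15 ± 0.0935 in JmjC and 1.24 ± 0.259 in WT. Relative to its mean, the abd-A to Antp ratio spread more in L854F and WT, and about as much in JmjC. Several other summed levels were lowest in replicate 3 of each group too. The 7 neuron markers summed to 3900 CPM there in L854F, 3940 in JmjC and 3890 in WT, the 5 neuroblast markers to 200, 175 and 219 CPM, and Kdm5 stood at 729, 727 and 665 CPM. The part of these differences in the Hox values was not tested, and the labels do not say whether samples with the same number share anything.

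**Figure D4:**
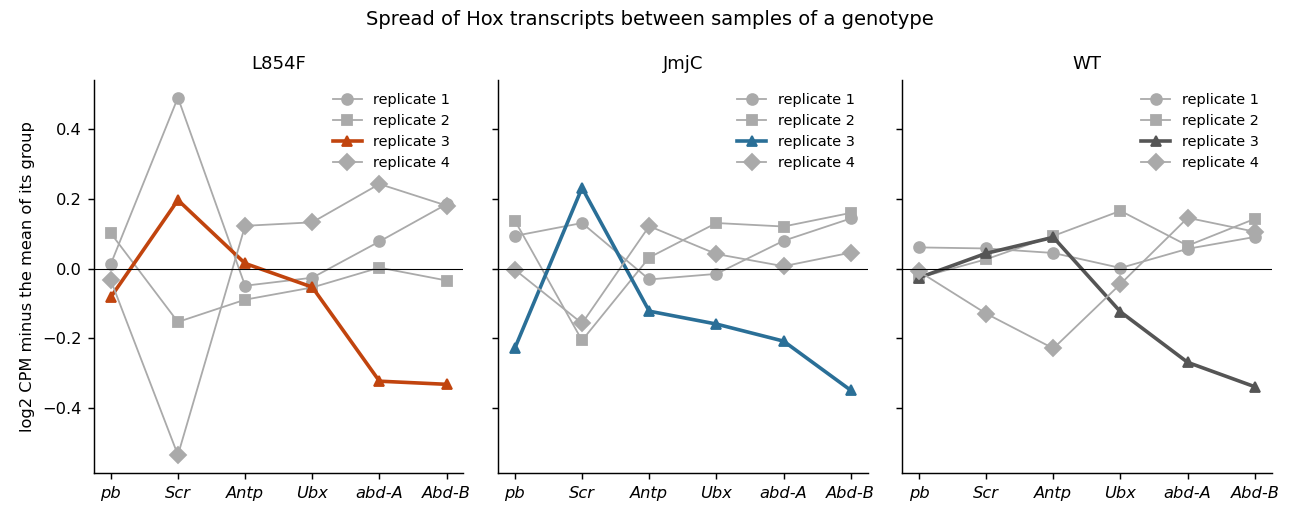
Deviation of each sample from its group mean in log2 CPM, for 6 tested Hox genes (Dfd, with the widest spread, is left out) in L854F, JmjC and WT. Replicate 3 is the lowest sample for abd-A and Abd-B in each group, by -0.21 to -0.35, while for Antp it is so in JmjC and not in L854F and WT.

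Over the 12 samples abd-A and Abd-B had a Pearson r of log2 CPM of 0.958, given as a description of points that share library scaling. Ubx had an r of 0.759 with abd-A and 0.796 with Abd-B, while Antp and abd-A had an r of 0.096. Scr had an r of -0.662 with Ubx and Dfd one of -0.743 with Antp. The share of Hox CPM per kb that came from the bithorax complex was 66.4 ± 2.74% in L854F, 63.5 ± 1.80% in JmjC and 65.2 ± 3.74% in WT (SD, n = 4 each), and these ranges overlap.

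Genes most like each member over the 12 samples were ranked by Pearson r of log2 CPM among 9012 genes. For abd-A these were Abd-B (0.958) and Cngl (0.954), and for Abd-B they were abd-A (0.958) and tutl (0.950). For Ubx they were CG42402 (0.872) and OtopLa (0.871). For Antp they were tsh (0.865), which encodes a zinc finger protein of the trunk, and Sdc (0.861), which encodes syndecan. For Scr they were dany (0.866) and hui (0.853), and for Dfd CG4860 (0.873) and Nepl6 (0.853). For pb they were phol (0.927), a Polycomb group DNA-binding protein, and a transcript the deposited tables call BGI_novel_G000033 (0.924). Levels differed in kind, since tsh had 525 ± 12.8 CPM in L854F, 497 ± 19.7 CPM in JmjC and 511 ± 33.5 CPM in WT (SD, n = 4 each) and dany stayed at or below 1.68 CPM in every sample.

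Among the other genes inside the complexes, Ama, lncRNA:CR33938 and lncRNA:CR45593 were called in at least 1 comparison. Ama, which encodes amalgam, a secreted immunoglobulin domain protein of neurons that lies between pb and Dfd, had 454, 407, 443 and 394 CPM in L854F, 339, 329, 365 and 273 CPM in JmjC, and 337, 298, 355 and 294 CPM in WT. All L854F samples were above all others, where the groups of 12.7% of all genes did not overlap in L854F against WT and those of 20.9% in L854F against JmjC. Ama rose in L854F against WT, by 0.40 on the log2 scale (SE 0.07, adjusted p = 0.00836), and against JmjC with 0.38 (adjusted p = 0.0127), while in JmjC against WT the value was 0.03 (adjusted p = 0.876). All 16 alternatives kept both calls.

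lncRNA:CR33938, a noncoding gene between lab and pb, averaged 126 ± 7.55 CPM in L854F, 83.0 ± 8.14 CPM in JmjC and 102 ± 5.29 CPM in WT (SD, n = 4 each). It rose in L854F against WT with a log2 fold change of 0.31 (adjusted p = 0.00984) and fell in JmjC against WT with -0.30 (adjusted p = 0.0178). The call in JmjC was lost without WT replicate 1 (adjusted p = 0.0509). L854F against JmjC gave 0.61 (adjusted p = 0.000379), which tests the difference between the mutants itself.

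lncRNA:CR45593, a noncoding gene that overlaps Ama on the opposite strand, averaged 18.1 ± 3.01 CPM in L854F, 21.5 ± 1.74 CPM in JmjC and 12.4 ± 2.24 CPM in WT (SD, n = 4 each). It rose in JmjC against WT by 0.80 on the log2 scale (SE 0.13, adjusted p = 0.00143), and in L854F against WT the value was 0.55 (adjusted p = 0.0620). Reads of this gene and Ama cannot be told apart if counting ignored strand. Of 9 other Antennapedia complex genes tested in each comparison with WT, 2 were called higher in L854F, where 5.54% of all genes were called, and 1 higher and 1 lower in JmjC, where 17.3% were. The JmjC count of 2 of 9 is near the share over all genes.

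The 3 noncoding genes tested in the bithorax complex were not called in any comparison by edgeR, and 0 had an unadjusted p under 0.05 in L854F against WT and 1 in each of the others. lncRNA:iab8, a transcript between abd-A and Abd-B that is known to keep abd-A off in the most posterior neurons, had 11.4, 8.26, 7.03 and 11.9 CPM in L854F, 10.2, 10.6, 7.75 and 10.7 CPM in JmjC, and 9.35, 11.3, 6.29 and 11.4 CPM in WT. Its replicate 3 too was the lowest in each group. lncRNA:iab4, which lies within the iab8 span, averaged 5.25 ± 1.81 CPM in L854F, 2.88 ± 0.916 CPM in JmjC and 4.98 ± 1.42 CPM in WT (SD, n = 4 each). Its log2 fold change in JmjC against WT was -0.79, with an SE of 0.27 and an adjusted p of 0.0683. lncRNA:bxd, upstream of Ubx, averaged 0.849 ± 0.209 CPM in L854F, 1.13 ± 0.353 CPM in JmjC and 0.882 ± 0.290 CPM in WT. The embryonic genes zen, zen2, bcd and ftz of the Antennapedia complex stayed at or below 12 counts in every sample.

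The remaining genes inside the Antennapedia complex with at least 10 counts in 4 or more samples were noncoding and were called in no comparison. lncRNA:CR42721 averaged 16.5 ± 1.26 CPM in L854F, 13.7 ± 2.16 CPM in JmjC and 15.6 ± 2.56 CPM in WT (SD, n = 4 each). The 7SL RNA genes 7SLRNA:CR42652 and 7SLRNA:CR32864 are near-identical copies with the same deposited count in every sample, at 100 to 295 counts in L854F, 139 to 211 in JmjC and 95 to 414 in WT, so the value of each is uncertain. lncRNA:CR44932, lncRNA:CR42651, lncRNA:CR43252 and lncRNA:CR45559 stayed at or below 75 counts in every sample.

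Genes that act with or upstream of the Hox proteins were read against the shares of all genes, of which 5.54% were called in L854F against WT and 17.3% in JmjC against WT, and 19% and 31% had an unadjusted p under 0.05 in these comparisons. Of 10 cofactor genes, 0 were called in L854F against WT by edgeR, with 1 at an unadjusted p under 0.05. In JmjC against WT 1 was called and 2 had an unadjusted p under 0.05. The called gene was exd, which encodes the homeodomain partner that binds DNA with Hox proteins, at 416 ± 15.7 CPM in JmjC and 365 ± 26.1 CPM in WT (SD, n = 4 each). On the log2 scale exd rose by 0.19 (SE 0.06, adjusted p = 0.0474), and the call was lost in 11 of 16 alternatives. hth, which encodes the partner that carries exd protein into the nucleus, averaged 590.5 ± 44.2 CPM in L854F, 602 ± 37.3 CPM in JmjC and 585 ± 62.9 CPM in WT.

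Of 21 Polycomb group genes tested, 0 were called in L854F against WT, with 1 at an unadjusted p under 0.05, where 5.54% and 19% of all genes were. In JmjC against WT 1 fell and 5 had an unadjusted p under 0.05, where 17.3% and 31% of all genes were called or had one. The called gene was escl, which encodes a paralog of the esc subunit of the complex that methylates lysine 27 of histone H3, at 44.4 ± 1.57 CPM in JmjC and 54.7 ± 1.91 CPM in WT (SD, n = 4 each). Its log2 fold change was -0.30 (adjusted p = 0.00189). In L854F against JmjC escl rose with one of 0.24 (adjusted p = 0.0248), a call lost in 5 of 16 alternatives. Of 19 trithorax group genes, Kdm5 among them, 0 were called in either comparison with WT, against the same shares, with 1 at an unadjusted p under 0.05 in L854F and 0 in JmjC. ash2, which encodes a subunit of complexes that methylate lysine 4 of histone H3, averaged 52.4 ± 1.97 CPM in L854F and 60.2 ± 2.33 CPM in JmjC (SD, n = 4 each). In L854F against JmjC it fell with a log2 fold change of -0.19 (adjusted p = 0.0326), a call lost in 6 of 16 alternatives.

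Of 4 tested genes of the cell death pathway that abdominal Hox proteins use, skl fell in JmjC against WT, with 23.2 ± 1.22 CPM in JmjC and 29.8 ± 0.526 CPM in WT (SD, n = 4 each), a log2 fold change of -0.36 and an adjusted p of 0.00143. Over all genes 7.67% were called lower in this comparison. rpr, grim and hid, the other members of this list, had log2 fold changes of -0.33, -0.11 and 0.16 in the same comparison and were not called. In L854F against WT 0 of the 4 were called, with 0 at an unadjusted p under 0.05, where 5.54% and 19% of all genes were. Whether the 10 brain patterning genes mark brain tissue in these samples was not tested. In JmjC toy and ey averaged 82.7 and 37.2 CPM, while tll, Rx, hbn, bsh and Optix averaged at or below 0.875 CPM. Among the 10, oc rose in JmjC against WT, at 27.5 ± 2.02 CPM in JmjC and 21.4 ± 2.37 CPM in WT, with a log2 fold change of 0.36 (adjusted p = 0.0170). This call was lost without JmjC replicate 1 (adjusted p = 0.0558). The log2 fold change of oc in L854F against WT was 0.25 (adjusted p = 0.140), where that of Scr was -0.14. The part of brain tissue in the Scr values was not tested.

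Peptide genes of neurons that occur in set segments, several of which are known to depend on Hox genes, fell in part in both mutants. Of the 8 in the list, 4 fell in L854F against WT and 0 rose, where 2.49% of all genes were called lower and 3.04% higher, with a median log2 fold change of -0.37 against 0.00 over all genes. The 4 were FMRFa, Capa, Lk and CCAP. In JmjC against WT 4 fell and 0 rose, where 7.67% of all genes were called lower and 9.66% higher. Their median was -0.34, and the 4 were Nplp1, CCAP, Capa and FMRFa. The neurons that make them are few in each nerve cord, and the part of a change in their number was not tested. The list was chosen with earlier results of these data known, so its counts beside these shares are a description.

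FMRFa, made by the Tv neurons of the thorax, had 78.4, 86.9, 79.4 and 79.8 CPM in L854F, 86.4, 97.3, 72.5 and 98.6 CPM in JmjC, and 114, 108, 120 and 124 CPM in WT. All mutant samples were below all WT samples, where the groups of 12.7% of all genes did not overlap in L854F against WT and those of 22.7% in JmjC against WT. In L854F against WT it fell, with a log2 fold change of -0.52 (adjusted p = 0.000272), and in JmjC against WT it fell with one of -0.39 (adjusted p = 0.0136). Capa, made by neurons of the abdomen and the mouthpart region, averaged 101 ± 10.2 CPM in L854F, 117 ± 7.58 CPM in JmjC and 157 ± 13.8 CPM in WT (SD, n = 4 each), with a log2 fold change of -0.64 in L854F (adjusted p = 0.00086) and -0.43 in JmjC (adjusted p = 0.00187). CCAP, which encodes crustacean cardioactive peptide, averaged 28.6 ± 2.09 CPM in L854F, 26.9 ± 1.65 CPM in JmjC and 36.5 ± 2.19 CPM in WT. Its log2 fold change was -0.35 in L854F (adjusted p = 0.0153), lost in 2 of 16 alternatives, and -0.44 in JmjC (adjusted p = 0.00096).

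In L854F against JmjC 1 of the 8 peptide genes was called higher and 1 lower, where 7.2% of all genes were called higher and 8.8% lower. Lk, which encodes leucokinin, made by abdominal neurons among others, averaged 106.5 ± 10.98 CPM in L854F, 141 ± 13.98 CPM in JmjC and 151 ± 9.47 CPM in WT (SD, n = 4 each). It fell in L854F against WT with a log2 fold change of -0.50 (adjusted p = 0.00204) and in L854F against JmjC with -0.40 (adjusted p = 0.00907), and in JmjC against WT the value was -0.10 (adjusted p = 0.417). Nplp1, a neuropeptide precursor gene of Apterous neurons, averaged 643 ± 41.6 CPM in L854F, 514 ± 36.6 CPM in JmjC and 705 ± 30.8 CPM in WT. It fell in JmjC against WT with a log2 fold change of -0.45 (adjusted p = 0.000498) and was higher in L854F against JmjC by 0.33 (adjusted p = 0.00827). Burs, Pburs and Ilp7 passed the threshold in no comparison.

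**Figure D5:**
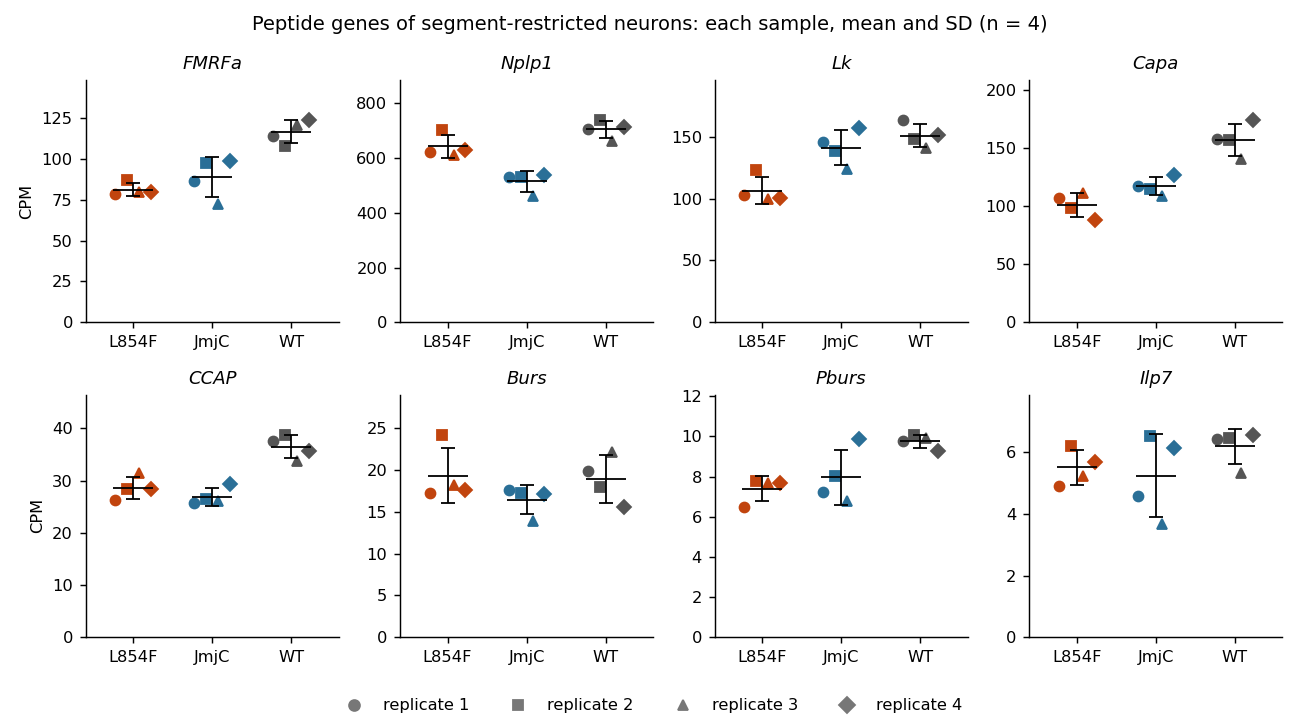
Level in CPM of the 8 peptide genes of segment-restricted neurons in every sample of L854F, JmjC and WT, with the mean and SD over 4 samples. All mutant samples lie below all WT samples for FMRFa, Capa and CCAP, while Lk is low in L854F and Nplp1 lowest in JmjC. Over all genes the groups did not overlap for 12.7% in L854F against WT and 22.7% in JmjC against WT.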

How the data were processed

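RNA from larval ventral nerve cord was measured in 12 samples. The deposited tables hold expected counts per gene, made by the authors with Bowtie2 2.2.5 and RSEM 1.2.12 on build dm6, per the submitters' processing notes, as whole numbers. Log2 fold changes and p-values in the authors' deposited comparison tables come from DESeq2, per those notes. The authors' deposited gene length in bases (treated as a score) was used for levels per kb, and the authors' deposited mean expression (a signal) was not used. FlyBase identifiers gave positions in the BDGP6.54 annotation.

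Each comparison was fitted on its own 8 samples with edgeR 4.0.16 in R 4.3.3, using filterByExpr (minimum count 10, minimum total 15), TMM scaling, the quasi-likelihood F-test and Benjamini-Hochberg adjustment over all genes tested. DESeq2 1.42.0, other scalings, no filter, a robust fit, all 12 samples in 1 fit, a replicate block and leaving out each sample were alternatives. The fit was tested on simulated data. L854F against JmjC used the genes in both tables.

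The Hox genes were named in every sample. Genes inside the complexes were named at 10 or more counts in at least 4 samples, list members when called (at most 6 per comparison), and for each Hox gene the 2 genes with the highest r. The members and lists were chosen with earlier results of these data known. Depth was 15103631 to 16850705 counts per sample.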

Additional observations from a re-analysis of the deposited data

Results flagged for a closer look

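Within groups of 4, a sample was singled out where its gap to the nearest other sample, divided by the range of the group, exceeded Dixon's 95% critical value. The test was made for 8 Hox genes in 3 groups, 24 groups in all, and chance alone gives about 1 in 20. Antp had its lowest WT sample at 207 CPM in replicate 4, with a gap of 0.833 of the range. Ubx had its highest L854F sample at 139 CPM, also in replicate 4, with a gap of 0.856. Abd-B had its lowest WT sample at 58.7 CPM in replicate 3, with a gap of 0.875.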

How the results depend on the processing

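Counting the Hox genes called gave 0 in each comparison, and the count changed in few alternatives. In JmjC against WT the replicate block gave 1 (Abd-B, log2 fold change -0.167, adjusted p = 0.0478), and leaving out single replicates gave 0 to 1. In L854F against JmjC the replicate block gave 3 (Scr -0.437, adjusted p = 0.0225; abd-A 0.23, adjusted p = 0.0368; Abd-B 0.265, adjusted p = 0.0171), leaving out single replicates gave 0 to 1, and leaving out number 3 in both groups gave 2. In L854F against WT every alternative gave 0. Samples with the same number had correlations of their deviations between -0.101 and 0.159, with 4 of 12 pairs over 0.1. In L854F against JmjC the 4 pairs had 0.159, 0.125, 0.09 and 0.098. In no comparison were all pairs over 0.1, and the labels do not say that a number is shared, so whether the numbers pair the samples is not settled. The block moved the calls over all genes to 2038 from 1473 in L854F against JmjC. In 12 of 24 cases a sample's closest partner had its own number, a hint from the data and not the design.

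Signs turned for estimates near 0. With single replicates left out, L854F against WT ranged from -0.004 to 0.190 for Abd-B, -0.054 to 0.050 for Antp and -0.323 to 0.014 for Scr, and JmjC against WT from -0.106 to 0.006 for Antp. Without number 3 in both groups the last was 0.034. The causes were not tested. In L854F against WT 303 to 727 genes were called, and in JmjC against WT 1148 to 1778. The order of levels was the same without length. Depth limits lab and Dfd most.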
